A study of Homo sapiens with 2 samples.

Results

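Ribosome footprints were read on the mRNAs of 30 genes that start translation: 28 genes for eukaryotic initiation factors (eIFs) and 2 for cytoplasmic poly(A)-binding proteins. The genes were taken by Ensembl ID as a functional group and not by a rule on their values, though earlier results of these data were known. All 30 were found among the 57820 IDs of the table. Their names come from the definition of the group, since the deposited table carries IDs only.

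Both libraries come from HEK293 cells, a widely used line derived from human embryonic kidney, and form a single group of cells given DMSO vehicle for 12 h without heat shock. Replicate 1 belongs to batch 1 and replicate 2 to batch 2, each made from 2 plates of 15 cm. In ribosome profiling, a nuclease digests mRNA that ribosomes do not cover, and the covered pieces are sequenced. The values are counts of pieces of 27 to 29 nt per gene, 865838 in all in replicate 1 and 611266 in replicate 2. There was no treated group to compare, so the comparisons are between the genes' footprints within a library and between the 2 libraries. A lower count can mean less mRNA or fewer ribosomes per mRNA, and matched RNA-seq was not analysed here. Library and batch cannot be told apart, and the labels do not say that the cultures were independent, so the SD over 2 libraries may be technical. The cell line's identity was not checked against marker genes, because other IDs could not be named here.

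Translation of most mRNAs begins at the cap. The eIF4F complex (the cap-binding eIF4E, the scaffold eIF4G and the RNA helicase eIF4A) prepares the mRNA, and poly(A)-binding protein joins its tail to the eIF4G scaffold. The small ribosomal subunit, loaded with eIF3, eIF1, eIF1A, eIF5 and the eIF2 complex that carries initiator tRNA, scans to the start codon, after which eIF5B brings the large subunit. Many mRNAs of the translation machinery start with a 5′ terminal oligopyrimidine (TOP) tract, a C followed by pyrimidines, through which mTOR signalling controls their translation.

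The starts of the mRNAs were therefore read for such a tract. Whether the genes are regulated together through it was not tested. A match was a C at the annotated transcript start followed by at least 4 bases that are all C or T, read on the gene's own strand. Promoter sequences from RefSeq (GRCh38.p14) matched 22 of the 30 genes by symbol, and the other 8 have none here. Of the 22 genes, 7 had the tract (31.8%), against 1404 of 27305 genes with an entry (5.14%). They are shown 5′ to 3′, with 12 bases before the start and 18 from it, and the tract in capitals.

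EIF4A2, chr3:186783565-186783594, + strand: gggcgccgctgtCTTTTCagtcgggcgctg
EIF4B, chr12:53006444-53006473, + strand: cctcatccgggtCTTTTgcgttctctttcc
EIF3D, chr22:36529149-36529178, - strand: cgcgcatgtttcCTCTTTTCCTggtttctc
EIF3F, chr11:7987325-7987354, + strand: cgcttccgcctcCTTCTTTCTCgacaagat
EIF3K, chr19:38619176-38619205, + strand: cgtttccaccacCTCTTCCTgttcccgtcc
EIF3M, chr11:32583819-32583848, + strand: cggcccagttccCTTTTCCggtcggcgtgg
EIF2S3, chrX:24054944-24054973, + strand: gtgatttccttcCTCTTTTggcaacatggc

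The tracts ran from 5 bases in EIF4B to 10 in EIF3D and EIF3F. Of the 7 genes, 4 encode eIF3 subunits, which make up 13 of the 30 genes. A match describes the annotated start only, and the starts used in these cells were not measured.

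All 30 genes had counts above 0 in both libraries. Together they held 0.644% of the counts in replicate 1 and 0.50% in replicate 2, with 95% Clopper-Pearson intervals of 0.627 to 0.661 and 0.482 to 0.518. Their mean was 0.572% ± 0.102 (SD, n = 2). Intervals here and below cover counting error only, and amplified pieces are not independent molecules. The fall came mostly from EIF4G1 and EIF3A, the genes with the most counts. Without them, the other 28 genes held 0.411% and 0.373%. The 2 highest IDs of the table took 17.6% of replicate 1 and 23.2% of replicate 2. Both libraries were also set on a common scale from all IDs (TMM scaling). On it, the log2 ratio of replicate 2 over replicate 1 was -0.26 (-0.32 to -0.19) for all 30 genes. For the 28 genes it was -0.03 (-0.11 to 0.04), which includes equal levels. By mean CPM (counts per 1000000 counts of the library), the median gene stood at percentile 90.4 of the 12262 IDs above 0 in both libraries, with a range from 40.5 (EIF4B) to 99.2 (EIF4G1). The median gene had 128 CPM, where the median of those IDs was 17.0 CPM. These ranks are of counts not divided by coding length, which was not used here, so they order the depth of measurement and not translation per codon. For the same reason no gene's level is set against another's below. Ratios between 2 genes are compared only from library to library, where length cancels.

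**Figure D1:**
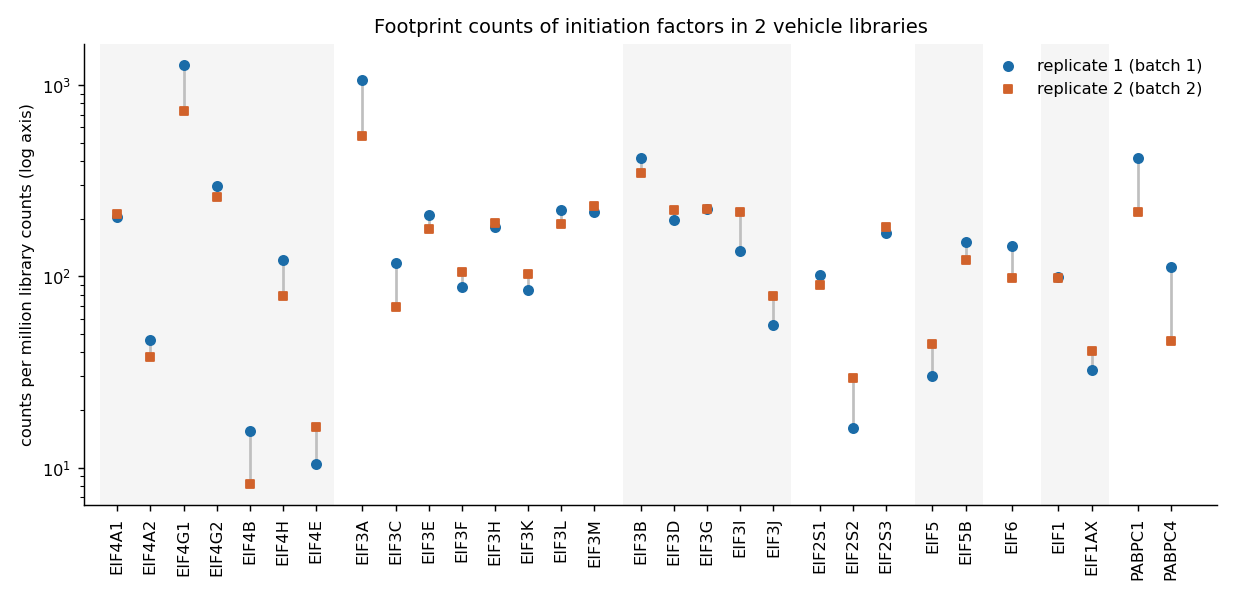
CPM of each of the 30 genes (log axis, not divided by length) in replicate 1 (circles) and replicate 2 (squares), with shaded and unshaded bands for the eIF4 factors, eIF3 octamer, other eIF3 subunits, eIF2, eIF5 with eIF5B, eIF6, eIF1 with eIF1A, and poly(A)-binding proteins. The squares lie well below the circles for EIF4G1, EIF4B, EIF3A, EIF3C, PABPC1 and PABPC4, and well above for EIF3I, EIF2S2 and EIF4E.

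Among the cap-binding factors, the 2 scaffold genes differed in how they changed between the libraries. EIF4G1 (ENSG00000114867), the main eIF4G scaffold, had 1101 counts in replicate 1 and 448 in replicate 2, or 1272 and 733 CPM. After TMM scaling, which sets the libraries on a common scale from all IDs, its level was 1.61-fold higher in replicate 1, a log2 ratio of replicate 2 over replicate 1 of -0.69 (95% exact binomial interval -0.85 to -0.53). EIF4G2 (ENSG00000110321), a related scaffold that lacks the eIF4E-binding site, had 256 and 159.33 counts, and its log2 ratio was -0.08 (-0.37 to 0.22). The count ratio of EIF4G1 to EIF4G2 was accordingly 4.30 in replicate 1 and 2.81 in replicate 2, so it was 1.53 times larger in replicate 1 (1.21 to 1.92).

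The helicase paralogs did not separate the libraries in this way. EIF4A1 (ENSG00000161960), the principal eIF4A helicase, had 175.83 and 129.16 counts, or 203 and 211 CPM. EIF4A2 (ENSG00000156976), its close paralog, had 40 and 23 counts. Their count ratio was 4.40 and 5.62, and the change from replicate 1 to replicate 2 was 1.28-fold, with an interval of 0.705 to 2.35 that spans equality. A smaller change than that interval allows was not detectable at this depth.

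The helicase cofactors and the cap-binding protein follow. EIF4H (ENSG00000106682), which stimulates eIF4A, had 105 and 48 counts, with -0.52 as its log2 ratio (-1.04 to -0.01). EIF4B (ENSG00000063046), the other stimulator of eIF4A, had 13.5 and 5 counts, and EIF4E (ENSG00000151247) had 9 and 10. Their intervals, -2.70 to 0.68 for EIF4B and -0.69 to 2.24 for EIF4E, include equal levels and are too wide to place either gene. The ratios of EIF4B to EIF4H (0.129 and 0.104), EIF4A1 to EIF4E (19.5 and 12.9) and EIF4G1 to EIF4E (122 and 44.8) changed from library to library by no more than their counting error. For the last, the ratio of replicate 2 over replicate 1 was 0.366, with an interval of 0.131 to 1.01.

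eIF3, a complex of 13 subunits that holds the small subunit and recruits it to the mRNA, took 0.321% of the counts of replicate 1 and 0.269% of replicate 2. EIF3A (ENSG00000107581), its largest scaffold subunit, had 915 and 329 counts, or 1057 and 538 CPM. Its log2 ratio was -0.86 (-1.05 to -0.68), or 1.82-fold higher in replicate 1. Without EIF3A, the other 12 subunits took 0.215% of the counts in each library. After TMM scaling, the log2 ratio of their summed counts was 0.11 (0.008 to 0.21).

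The other subunits of the octamer, the PCI and MPN proteins that form the core of eIF3, had smaller log2 ratios in size than EIF3A. EIF3C (ENSG00000184110) had 102 and 42 counts, and its log2 ratio was -0.67 (-1.22 to -0.14). A near-identical copy of this gene, EIF3CL, lies elsewhere on the same chromosome, so the split of pieces between the copies is uncertain. EIF3E (ENSG00000104408) had 181 and 108 counts, EIF3F (ENSG00000175390) had 76 and 64, and EIF3H (ENSG00000147677) had 156 and 116. EIF3K (ENSG00000178982) had 73 and 63 counts, EIF3L (ENSG00000100129) had 192 and 114, and EIF3M (ENSG00000149100) had 188.5 and 142.5. The log2 ratios of these 6 subunits ran from -0.14 in EIF3L to 0.40 in EIF3K, and each interval included equal levels.

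Outside the octamer, EIF3I differed most between the libraries. EIF3I (ENSG00000084623), a WD-repeat subunit that binds EIF3B, had 118 and 133 counts, or 136 and 218 CPM. Its log2 ratio was 0.78 (0.42 to 1.15), or 1.72-fold higher in replicate 2. Its partners EIF3B (ENSG00000106263), with 361 and 211 counts, and EIF3G (ENSG00000130811), an RNA-binding subunit with 195 and 137 counts, had log2 ratios of -0.16 and 0.10, with intervals that included equal levels. EIF3D (ENSG00000100353), a subunit able to bind the cap, had 170 and 136 counts, with 0.29 as its log2 ratio (-0.05 to 0.62). EIF3J (ENSG00000104131), the loosely bound subunit, had 48 counts in both libraries, which after scaling is a log2 ratio of 0.61 (0.004 to 1.22).

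Within eIF3, the counts shifted away from EIF3A. EIF3A made up 33.0% of the eIF3 counts of replicate 1 (31.2 to 34.7) and 20.0% of replicate 2 (18.1 to 22.0). EIF3I made up 4.25% (3.53 to 5.07) and 8.09% (6.82 to 9.51). A loss in 1 subunit raises the others' shares by arithmetic, and 10 of the 13 subunits had a higher share in replicate 2, all but EIF3A, EIF3B and EIF3C. A pair without EIF3A, EIF3I over EIF3G, was chosen after the values were seen: its count ratio was 0.605 and 0.971, 1.60 times larger in replicate 2 (1.14 to 2.26).

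**Figure D2:**
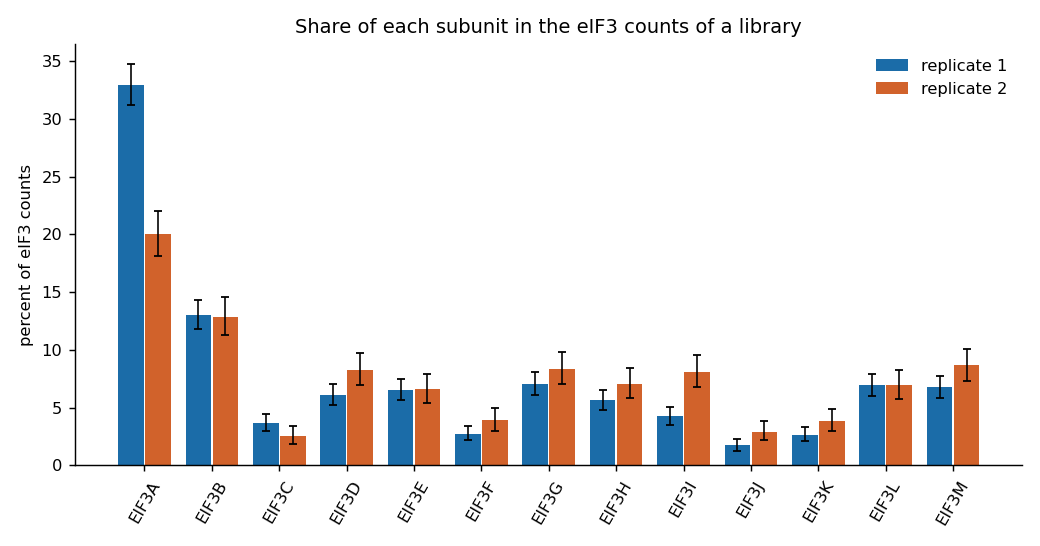
Percent of all eIF3 counts that each of the 13 subunits took in replicate 1 (blue) and replicate 2 (orange), with bars from 0 and 95% exact binomial intervals. EIF3A fell from 33.0% to 20.0% and EIF3I went from 4.25% to 8.09%, while EIF3B, EIF3E and EIF3L took nearly equal shares in both.

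The eIF2 complex, the GTPase that delivers initiator tRNA, showed no difference between the libraries beyond counting error. EIF2S1 (ENSG00000134001), the alpha subunit whose phosphorylation lowers initiation under stress, had 88 and 55 counts. EIF2S3 (ENSG00000130741), the GTP-binding gamma subunit, had 146 and 110 counts. EIF2S2 (ENSG00000125977), the beta subunit, had only 14 and 18 counts, and its log2 ratio of 0.97 had an interval of -0.12 to 2.09. The count ratio of EIF2S1 to EIF2S3 was 0.603 and 0.50 (0.83-fold, 0.533 to 1.29), and that of EIF2S2 to EIF2S3 was 0.0959 and 0.164 (1.71-fold, 0.763 to 3.88).

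The factors that act around start codon choice and subunit joining also stayed within counting error. EIF5 (ENSG00000100664), which makes eIF2 hydrolyse GTP, had 26 and 27 counts, and its count ratio to EIF2S3 was 0.178 and 0.245 (1.38-fold, 0.729 to 2.61). EIF5B (ENSG00000158417), the GTPase of subunit joining, had 131 and 74 counts, with -0.21 as its log2 ratio (-0.64 to 0.21). EIF1 (ENSG00000173812), which guards start codon selection, had 86 and 60 counts, while EIF1AX (ENSG00000173674), the X-linked eIF1A gene, had 28 and 25. Their count ratio was 3.07 and 2.40 (0.781-fold, 0.396 to 1.55). EIF6 (ENSG00000242372), which keeps large subunits from joining too early, had 124 and 59.5 counts, with -0.44 as its log2 ratio (-0.91 to 0.02).

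Both poly(A)-binding proteins were lower in replicate 2. PABPC1 (ENSG00000070756), the major cytoplasmic form, had 358 and 132 counts, or 413 and 216 CPM, and was 1.77-fold higher in replicate 1 (log2 ratio -0.83, -1.13 to -0.54). PABPC4 (ENSG00000090621), its inducible relative, had 96.5 and 28 counts and was 2.24-fold higher in replicate 1 (log2 ratio -1.17, -1.83 to -0.55). The count ratio of PABPC1 to PABPC4 was 3.71 and 4.71, a change of 1.27-fold with an interval of 0.780 to 2.10. The interval spans equality but is wide, so it does not show that the genes fell by the same amount. Summed, they took 0.0525% of replicate 1 and 0.0262% of replicate 2. Of the 10 pairs fixed in the design, which leave out the pair of eIF3 subunits above, 1 (EIF4G1 and EIF4G2) changed between the libraries by more than its counting error.

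**Figure D3:**
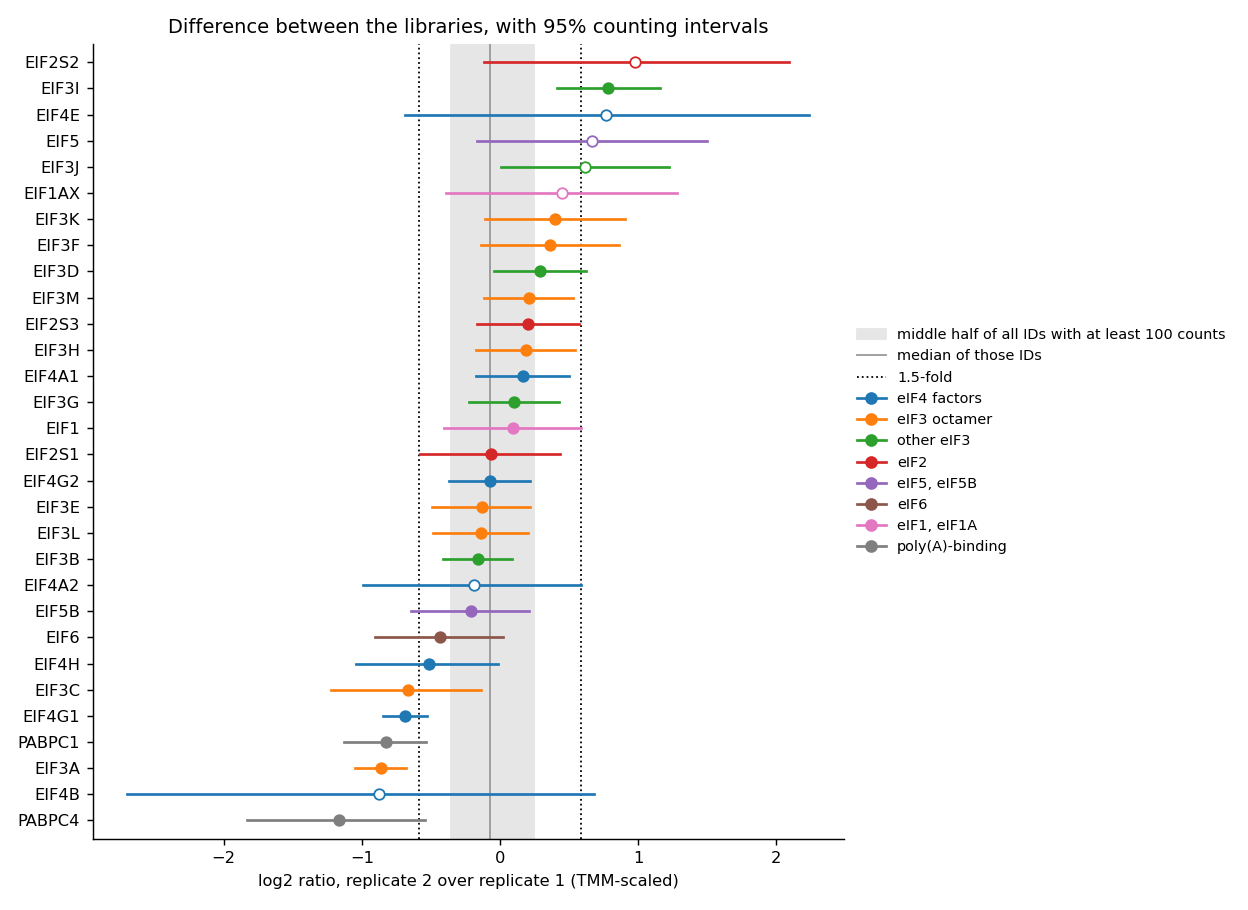
Log2 ratio of replicate 2 over replicate 1 after TMM scaling for each gene (points) with 95% exact binomial intervals (lines), coloured by complex, with open points for genes under 100 summed counts. The grey band and line are the interquartile range and median of all IDs with at least 100 counts, and the dotted lines mark 1.5-fold: EIF3A, EIF3C, EIF4G1, PABPC1 and PABPC4 lie beyond the lower one and EIF3I beyond the upper one among the filled points.

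The spread between the libraries was then read against that of all IDs. A summed count of at least 100 was reached by 23 of the 30 genes and by 2241 IDs in all. Of the 23 genes, 5 were higher in replicate 1 by over 1.5-fold, against 11.7% of all such IDs. In the other direction, 1 gene (EIF3I) was higher in replicate 2, against 8.70%. A counting interval wholly below equal levels was found for 6 of the 23 (the same 5 and EIF4H), where 22.3% of all such IDs had one, and 1 lay wholly above, where 15.6% did. An interval that leaves out equal levels was thus common among IDs of this depth. The median log2 ratio was -0.08 for the 23 genes and -0.07 for all such IDs, and the median absolute log2 ratio was 0.21 and 0.30.

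Of the genes with at least 100 summed counts, 7 had an interval that left out equal levels. These were next set beside 200 IDs around each in rank by summed count. For EIF4G1, at percentile 99.2 by mean CPM, the window took in the IDs with the most counts. Its neighbours were thus less alike in depth. A larger absolute log2 ratio was found in 3.5% of the neighbours of EIF3A, 5.5% of those of PABPC4, 6.5% of those of PABPC1 and 6.5% of those of EIF3I. The shares were 10.5% for EIF4G1, 19.5% for EIF3C and 32.0% for EIF4H. Of the 7, EIF3A stood nearest the edge of the spread of IDs of like depth, whereas EIF4H and EIF3C were well inside it. The 7 were picked for ratios that left out equal levels, so low shares follow in part from that choice. The other genes with at least 100 summed counts had shares from 37% (EIF6) to 91.5% (EIF2S1).

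**Figure D4:**
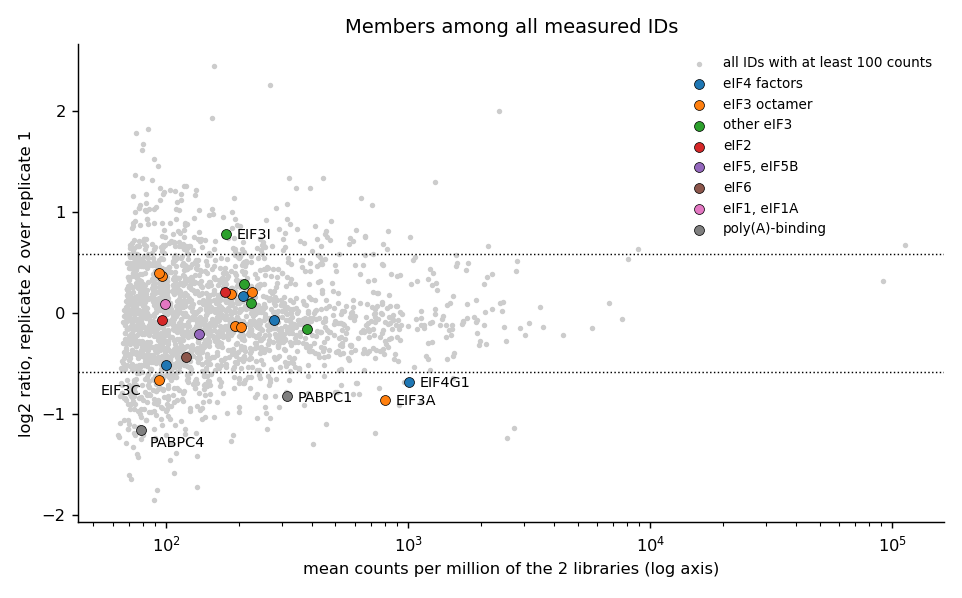
Log2 ratio of replicate 2 over replicate 1 against mean CPM (log axis) for the 2241 IDs with at least 100 summed counts (grey), with the 23 genes of the group that reached this minimum in colour and dotted lines at 1.5-fold. The 6 named genes lie outside the dotted lines: EIF3I above, and EIF3A, EIF3C, EIF4G1, PABPC1 and PABPC4 below.

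The 5 genes with a pyrimidine tract at the start and at least 100 summed counts (EIF2S3, EIF3D, EIF3F, EIF3K and EIF3M) had log2 ratios of 0.20 to 0.40 after TMM scaling and of 0.09 to 0.29 by library size. Each of their 95% counting intervals after TMM scaling included equal levels. The interquartile range of all IDs with at least 100 summed counts was -0.35 to 0.25 after TMM scaling. Over all 7 genes with a tract the log2 ratios ran from -0.87 in EIF4B to 0.40 in EIF3K, with a median of 0.21, and those of the 15 genes with an entry and no tract ran from -0.69 to 0.78, with a median of -0.07. The values below 0 among the 7, those of EIF4B and EIF4A2 (-0.19), rest on 13.5 and 5 counts and on 40 and 23 counts. The minimum of 100 summed counts thus removed every value below 0 among the genes with a tract. It was not applied to the 15 genes without one, so the range of the 5 genes is not comparable with theirs. PABPC1 and PABPC4, EIF3A and 5 other genes had no entry, so the comparison leaves out 3 of the 5 genes that were lower in replicate 2 by over 1.5-fold.

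Some of the genes have copies or hold other genes. The 7 genes under 100 summed counts (EIF4A2, EIF4B, EIF4E, EIF3J, EIF2S2, EIF5 and EIF1AX) each have at least 1 RefSeq pseudogene that carries their name, as do 11 of the other 23. EIF4B has 9 such pseudogenes and EIF2S2 has 7, but EIF4A1 and PABPC1, with 13 each, lie among the deeper genes. How pieces that match several places were counted is not given in the sources used here, and the part of these copies in the counts was not tested. In the RefSeq annotation, 7 of the 30 genes contain snoRNA genes. These are EIF4A2 with 5, EIF4A1 with 3, EIF3A with 2, and EIF4G1, EIF4G2, EIF5 and PABPC4 with 1 each. Of these, EIF4G1, EIF3A and PABPC4 lay beyond 1.5-fold between the libraries, EIF4A1 and EIF4G2 within it, and EIF4A2 and EIF5 under 100 summed counts. The part of snoRNA pieces in the counts was not tested. Counts that are not whole occurred in EIF4A1, EIF4G2, EIF4B, EIF3M, EIF6 and PABPC4. Of these 6 genes, 4 overlap another RefSeq gene, as do 16 of the 24 with whole counts, which is the same share.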

How the data were processed

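Footprints were sequenced from vehicle-treated HEK293 cells, 1 library in each of 2 batches, without removal of ribosomal RNA (per the labels' protocols). The deposited values are the authors' unscaled estimated counts per ID, of footprints 27 to 29 nt long per the labels, and some are not whole. The genome build was given as hg19, according to the submitters' processing notes. The sources used here name no aligner, counter, annotation or strand setting. Both libraries form 1 group, so no p-value was computed.

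The genes and lists were chosen with earlier results of these data known. The rule for named genes asked for all 30 genes, with values for fixed pairs of related genes and for genes beyond 1.5-fold. Its part on the highest and lowest levels per codon, and the planned density order and eIF3 density spread, needed coding lengths, which were not used here. A list of 37 further initiation genes could not be applied, since 0 of 59792 RefSeq genes list an Ensembl ID.

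Counts were rounded for the log2 ratios of single genes and for intervals. Count ratios of pairs, shares and CPM used unrounded counts, and CPM used the sum of all IDs. TMM factors (1.04 and 0.963) came from edgeR 4.0.16 in R 4.3.3 over IDs with at least 20 summed counts. Ratios carry conditional exact binomial intervals at 95%, and shares carry Clopper-Pearson intervals, from scipy 1.17.1 in Python 3.11.15. Ratio steps were tested on simulated data. A count of 10 or fewer leaves wide intervals, and 1 count equals 1.15 CPM in replicate 1 and 1.64 CPM in replicate 2. Alternatives tried other scaling (library size, DESeq2 1.42.0), count minimums, fold limits and totals, unrounded counts, and 1 replicate at a time.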

Additional observations from a re-analysis of the deposited data

How the results depend on the processing

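Leaving the 2 highest IDs of the table out of the total gave the 30 genes a share of 0.716%, as follows from the smaller total, and removal of EIF4G1 and EIF3A (a setting added after seeing the data) left 0.392%. Single libraries gave 0.50% and 0.644%. The median rank percentile was 85.9 among IDs with at least 20 summed counts, over the 28 genes that reach this, and 89.6 to 90.6 in single libraries. The 5 genes higher in replicate 1 became 1 (PABPC4) with a 2-fold limit, where 2.77% of all IDs were, and 6 by library size, with EIF4H added, where 16.7% of all IDs were. The 1 gene higher in replicate 2 became 0 with a 2-fold limit, where 2.37% of all IDs were. With at least 20 summed counts, 5 of 28 genes were higher in replicate 1, against 18.1% of all IDs. In that setting 4 genes were higher in replicate 2 (EIF2S2, EIF3I, EIF3J and EIF5, against 20.1% of all IDs). With no minimum, 6 of 30 genes were higher in replicate 1, with EIF4B added (21.2% of all IDs). In replicate 2 there were then 5, with EIF4E added (30.9%). Library-size scaling moved the median over all IDs with at least 100 counts from -0.07 to -0.18 on the log2 scale, and 17 of the 30 genes were higher in replicate 1 against 15 after TMM scaling. DESeq2 scaling, unrounded counts, and TMM without the 2 highest IDs (added after the data were seen) named the same 6 genes, and without the genes of non-whole counts (also added) PABPC4 dropped out. EIF3A lost share and EIF3I gained it under each added choice of eIF3 subunits in which they could be measured. Density order, eIF3 density spread and densities of pairs were not run, for want of coding lengths. No paired analysis was possible because the design holds a single group. Depth limits the 7 genes under 100 summed counts.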
